A study of Mus musculus with 17 samples.

Results

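The macrophage identity genes described here are Adgre1, Cx3cr1, Trem2, Mrc1, Ms4a7, Fcgr1, Apoe, Spp1, Gpnmb and Maf, which serve to recognise macrophages in tumors. They were chosen by gene symbol, as 10 of the 54532 genes in the deposited tables, and all 10 symbols were found. Macrophages are tissue phagocytes that clear dead cells, lipids and microbes, and in tumors they arise from tissue-resident cells and from blood monocytes. Their surface receptors read the surroundings: a fractalkine receptor, scavenger and lectin receptors, and receptors for antibodies and lipids. Lipid-laden tumor macrophages are known for Trem2, Apoe, Gpnmb and Spp1, whereas conventional dendritic cells, a related lineage specialised in presenting antigen to T cells, carry little of most of these transcripts.

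RNA was sequenced in 17 mouse samples to ask how versikine shapes the immune environment of tumors. Versikine, labelled Vkine, is a fragment cut by proteases from versican, a proteoglycan of the extracellular matrix. The samples it is set against are labelled EV, which often stands for empty vector. The tumor CD45 set had 3 Vkine samples and 3 EV samples of cells that carry CD45, the surface marker of white blood cells, so that the macrophages were measured together with all other leukocytes. The MutuDC set used a mouse conventional dendritic cell line in 4 groups: Vkine with LPS, EV with LPS, Vkine without LPS (n = 3 each) and EV without LPS (n = 2). LPS is a bacterial lipopolysaccharide that activates these cells. The labels do not tell how Vkine was given, at what dose and for how long LPS was used, which tumor model it was or how old the mice were. The sample type of the CD45 set says tumor and its source field says bone marrow. The titles of its EV samples are R1, R2 and R1L1 and those of its Vkine samples L1, L2 and L3, so that 2 EV samples may share an animal. Nothing says that replicates are separate animals or cultures, and p-values then speak only of how far these samples vary, part of which may be technical.

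Library totals were 13814620 to 18125269 counts in the CD45 set and 15938185 to 21263321 counts in MutuDC. In the CD45 samples all 25 genes of a core macrophage list had counts in every library, and their summed level was 19790 to 29150 CPM (counts scaled to library size) in Vkine and 27550 to 28830 CPM in EV. The 9 dendritic cell markers summed to 119.5 to 199.1 CPM in Vkine and 66.36 to 108 CPM in EV. Transcripts of the core macrophage list were thus abundant. The lists differ in length and in their genes, so the sums do not give shares of cell types. A pair of CD45 libraries stood apart. Vkine replicate 1 had 10.56% of its counts in mitochondrial genes, against 2.47% to 2.75% in the other Vkine libraries and 4.32% to 5.56% in EV, and it had 313.4 CPM of erythroid transcripts, against at most 28.52 CPM elsewhere. EV replicate 2 had 324.3 CPM of neutrophil markers, against 1795 and 1985 CPM in the other EV libraries. MutuDC carried dendritic cell markers at 797.5 to 1042 CPM in sum, with Xcr1 and Clec9a abundant in all 11 libraries.

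Promoters were read for motifs of factors known to act in myeloid cells. RefSeq windows on build GRCm38.p6, from 250 bases before to 50 bases after an annotated start, were found for 8 of the 10 genes, in 12 windows, with none for Adgre1 and Maf. The 6 printed here belong to the genes on which the comparisons turn: Cx3cr1, Trem2, Spp1, Gpnmb and Fcgr1, whose CD45 groups did not overlap, and Ms4a7, with the largest log2 fold change of Vkine over EV in MutuDC among members detected in both groups. Where a gene had several windows, the one nearest to its start in the deposited table is printed. Capitals mark motif matches, and each sequence reads 5′ to 3′ on the strand of its gene.
Cx3cr1, minus strand, chr9:120068247-120068546: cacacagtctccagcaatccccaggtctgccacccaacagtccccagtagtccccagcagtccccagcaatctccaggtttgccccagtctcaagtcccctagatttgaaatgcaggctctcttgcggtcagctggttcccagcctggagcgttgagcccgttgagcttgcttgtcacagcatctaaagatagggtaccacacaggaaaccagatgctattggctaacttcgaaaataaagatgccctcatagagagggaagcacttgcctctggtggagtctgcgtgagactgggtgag
Trem2, plus strand, chr17:48346151-48346450: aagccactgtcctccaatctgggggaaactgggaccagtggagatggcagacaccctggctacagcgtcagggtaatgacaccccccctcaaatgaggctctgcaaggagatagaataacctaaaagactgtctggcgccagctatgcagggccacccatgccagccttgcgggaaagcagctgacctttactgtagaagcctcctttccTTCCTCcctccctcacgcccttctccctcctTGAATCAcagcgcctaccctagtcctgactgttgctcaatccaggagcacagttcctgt
Spp1, plus strand, chr5:104434861-104435160: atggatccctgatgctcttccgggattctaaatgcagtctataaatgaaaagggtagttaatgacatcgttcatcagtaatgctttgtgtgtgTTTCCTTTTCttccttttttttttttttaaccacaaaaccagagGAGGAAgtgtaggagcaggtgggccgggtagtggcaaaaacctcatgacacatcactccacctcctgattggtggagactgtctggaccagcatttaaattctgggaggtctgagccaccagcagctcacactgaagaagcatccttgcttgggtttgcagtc
Gpnmb, plus strand, chr6:49036268-49036567: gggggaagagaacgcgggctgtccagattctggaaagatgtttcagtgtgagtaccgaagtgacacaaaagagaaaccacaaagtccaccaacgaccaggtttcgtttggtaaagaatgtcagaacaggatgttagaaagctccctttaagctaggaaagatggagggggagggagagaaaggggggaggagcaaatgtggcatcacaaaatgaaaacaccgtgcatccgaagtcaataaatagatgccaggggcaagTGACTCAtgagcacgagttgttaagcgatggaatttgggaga
Fcgr1, minus strand, chr3:96293920-96294219: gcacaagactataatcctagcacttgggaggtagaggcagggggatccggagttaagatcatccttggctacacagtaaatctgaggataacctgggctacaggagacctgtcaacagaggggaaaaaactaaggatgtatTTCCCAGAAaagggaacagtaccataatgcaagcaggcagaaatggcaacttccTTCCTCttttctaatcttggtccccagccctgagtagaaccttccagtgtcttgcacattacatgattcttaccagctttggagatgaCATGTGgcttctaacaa
Ms4a7, minus strand, chr19:11336097-11336396: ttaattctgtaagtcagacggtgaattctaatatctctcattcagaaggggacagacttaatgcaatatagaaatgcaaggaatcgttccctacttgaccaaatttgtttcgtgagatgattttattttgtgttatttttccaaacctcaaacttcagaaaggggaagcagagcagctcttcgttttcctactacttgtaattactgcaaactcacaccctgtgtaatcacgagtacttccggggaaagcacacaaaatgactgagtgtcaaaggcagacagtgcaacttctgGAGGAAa
The motifs searched on both strands were the interferon-gamma element GAS (TTCNNNGAA), the interferon element ISRE, the core of the PU.1 site (GAGGAA), the core of the MAF element (TGCTGA), the AP-1 site (TGANTCA), and the M-box (CATGTG) and E-box (CACGTG) cores. The capitals in the Fcgr1 window mark a GAS element, which 8.3% of all 32851 windows of this length hold, a PU.1 core on the other strand (28.3% of windows) and an M-box core (14.2%). The capitals in the Gpnmb window are an AP-1 site, found in 7.81% of windows, and those in the Trem2 window are a PU.1 core on the other strand and an AP-1 site. The printed Spp1 window holds an ISRE (3.44% of all windows) on the other strand and a PU.1 core. The printed Ms4a7 window holds a PU.1 core, and the other Ms4a7 window, which is not printed, holds an AP-1 site and an M-box core. The Cx3cr1 window held none of the 7 motifs, and the RefSeq start it is built on lies 1583 bases from the gene start in the deposited table. Among all 12 windows no MAF core and no E-box core was found, against 19.5% and 7.15% of all windows. These 12 windows come from 8 genes and are too few to show that either core is rarer there.

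In tumor CD45 samples these genes covered a wide range of levels. The deposited FPKM, fragments scaled to gene length and library size, allow genes to be compared. Apoe, a lipid carrier protein, averaged 1804 ± 165.8 FPKM in Vkine and 1884 ± 258.8 FPKM in EV (SD, n = 3 each), and it ranked between 13 and 27 among 22046 protein-coding genes in the 6 libraries. Spp1, which encodes the secreted matrix protein osteopontin, followed at 1423 ± 81.68 FPKM in Vkine and 1610 ± 53.52 FPKM in EV. All libraries of a group had more Apoe than Spp1, without overlap. Mrc1, the mannose receptor, came next at 118 ± 47.2 FPKM in Vkine and 134.5 ± 20.8 FPKM in EV. The middle 6 genes averaged 35.3 to 109 FPKM in Vkine and 51.4 to 84.0 FPKM in EV, and most neighbours in that order overlapped between libraries. In Vkine, Fcgr1 was the fourth gene and lay above the next without overlap, whereas in EV it overlapped both of its neighbours. Gpnmb, a lysosomal membrane glycoprotein, was the lowest in both groups, with no overlap with the next gene, at 15.8 ± 4.77 FPKM in Vkine and 7.61 ± 3.69 FPKM in EV. The 10 genes together took 0.7315% to 0.8856% of the raw counts of Vkine libraries and 0.9194% to 1.12% of those of EV libraries. Apoe and Spp1 alone took 0.5494% to 0.6367% in Vkine and 0.6563% to 0.7973% in EV. The scaling factors used for CPM were 0.9474 to 0.9807 in Vkine and 1.011 to 1.077 in EV. After that scaling the groups overlapped, with Vkine replicate 2 above EV replicates 1 and 3.

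**Figure D1:**
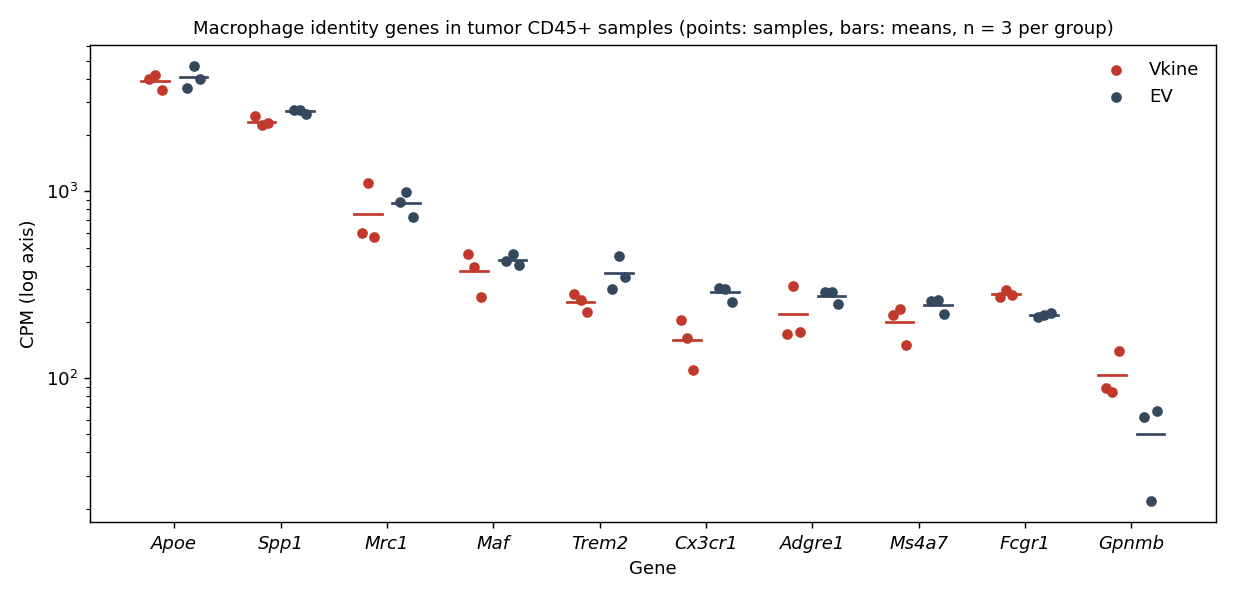
Level of each of the 10 genes in CPM (log axis) in the 3 Vkine and 3 EV tumor CD45 samples, with points for samples and bars for group means. The groups lie apart for Cx3cr1, Trem2 and Spp1 (Vkine under EV) and for Fcgr1 and Gpnmb (Vkine over EV), and they overlap for the other 5 genes.

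The comparison of Vkine with EV in tumor CD45 samples asked whether macrophage identity transcripts differ when versikine is present. No member passed an adjusted p under 0.05 with edgeR, of 14006 genes tested, of which 0.0286% passed. At an unadjusted p under 0.05 there were 4 members, Cx3cr1, Trem2, Fcgr1 and Gpnmb, against 12% of all genes tested, and DESeq2 called 1 member, Cx3cr1, against 1.74% of the genes it gave an adjusted p. The groups did not overlap for 5 of the 10 members, against 18.6% of all genes: 2 were higher in Vkine (9.2% of all genes) and 3 lower (9.42%). The fold change was negative for 8 of the 10, with a median log2 fold change of -0.19, against -0.002 over all genes tested. In bulk samples such as these, fewer cells of a type and less RNA per cell cannot be told apart.

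Cx3cr1 (chr9:119901616-120069879, minus strand, GRCm38) encodes the receptor for fractalkine, which guides and retains monocytes and tissue macrophages. It measured 205.9, 164.7 and 109.9 CPM in Vkine replicates 1 to 3 and 304.7, 301.0 and 256.8 CPM in EV replicates 1 to 3. All 3 Vkine samples lay under all EV samples, and the Vkine samples spread more widely. The log2 fold change was -0.84 ± 0.22 (SE), with an edgeR adjusted p of 0.267. DESeq2 gave an adjusted p of 0.0289 at -0.83, and edgeR without the low-count filter gave 0.000495 at -0.84, in a fit that called 2.04% of 25036 genes. Without the pair of libraries that stood apart it was -1.03 ± 0.20, with an edgeR adjusted p of 0.0259, and 2.04% of 14239 genes were called. Whether Cx3cr1 counts as called thus depends on the tool, the filter and those libraries.

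Trem2 (chr17:48346401-48354147, plus strand), a receptor for lipids and cell debris that signals through Tyrobp, measured 282.0, 261.0 and 226.8 CPM in Vkine and 301.8, 448.1 and 349.3 CPM in EV. The groups did not overlap, but the gap between the highest Vkine and the lowest EV sample was small. The log2 fold change was -0.51 ± 0.18, with an edgeR adjusted p of 0.335, and it was -0.35 without EV replicate 2, the highest sample. Fcgr1 (chr3:96282909-96293969, minus strand), the high-affinity receptor for IgG, lay on the other side of 0. It measured 273.0, 297.0 and 279.4 CPM in Vkine and 213.6, 217.5 and 222.8 CPM in EV, a log2 fold change of 0.38 ± 0.14 (edgeR adjusted p = 0.34). Its samples were tight within each group, and leaving out any single library kept the value between 0.34 and 0.39.

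Adgre1 (chr17:57358691-57483527, plus strand) encodes F4/80, the classic surface marker of mouse macrophages, and Mrc1 (chr2:14229392-14332057, plus strand) encodes CD206. Adgre1 measured 173.3, 311.0 and 176.9 CPM in Vkine and 289.2, 288.5 and 249.4 CPM in EV. Mrc1 measured 600.5, 1107 and 568.4 CPM in Vkine and 881.4, 991.2 and 732.9 CPM in EV. In both genes Vkine replicate 2 was the highest of the 6 samples and the other Vkine samples were the lowest, so the groups overlapped. Their profiles were the most alike of any pair of the 10, with a root mean square difference of 0.101 in centred log2 CPM over the 6 samples. The summed core macrophage list ran alike within Vkine, at 19790, 29150 and 23060 CPM. The log2 fold changes were -0.32 ± 0.23 for Adgre1 (edgeR adjusted p = 0.598) and -0.20 ± 0.26 for Mrc1 (0.805). Without Vkine replicate 2 they were -0.65 and -0.57, with edgeR adjusted p of 0.226 and 0.299.

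Ms4a7 (chr19:11321039-11336146, minus strand), a membrane protein of the MS4A family used as a macrophage marker, measured 217.0, 234.2 and 150.4 CPM in Vkine and 258.1, 262.0 and 220.0 CPM in EV. Maf (chr8:115682942-115707794, minus strand), a transcription factor of mature macrophages, measured 462.0, 394.7 and 270.4 CPM in Vkine and 422.4, 462.7 and 402.2 CPM in EV. In both genes Vkine replicate 3 was the lowest sample and the groups overlapped. The log2 fold changes were -0.30 ± 0.19 for Ms4a7 and -0.19 ± 0.20 for Maf, with edgeR adjusted p of 0.547 and 0.746. Without Vkine replicate 3 they were -0.13 and -0.0026.

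The secreted products Apoe and Spp1 (chr7:19696109-19699188, minus strand, and chr5:104435118-104441050, plus strand) had small fold changes. Apoe measured 3971, 4193 and 3488 CPM in Vkine and 3591, 4668 and 3990 CPM in EV, with broad overlap and a log2 fold change of -0.072 ± 0.18 (edgeR adjusted p = 0.906). Spp1 measured 2522, 2253 and 2312 CPM in Vkine and 2734, 2732 and 2602 CPM in EV. All Vkine samples lay under all EV samples for Spp1, by a small margin, with a log2 fold change of -0.19 ± 0.16 (edgeR adjusted p = 0.678).

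Gpnmb (chr6:49036546-49070929, plus strand), which marks lipid-laden phagocytes, had the highest fold change. It measured 88.06, 83.84 and 139.7 CPM in Vkine and 62.05, 22.12 and 66.82 CPM in EV. The groups did not overlap, but EV replicate 2 was far under the other EV samples. The log2 fold change was 1.05 ± 0.42 (edgeR adjusted p = 0.394), and without EV replicate 2 it was 0.69 ± 0.23 (adjusted p = 0.529). The FPKM ratio of Gpnmb to Cx3cr1 within a library was 0.296 to 0.879 in Vkine and 0.0508 to 0.18 in EV. This pair was picked after its values were seen, so the ratio is a description.

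**Figure D2:**
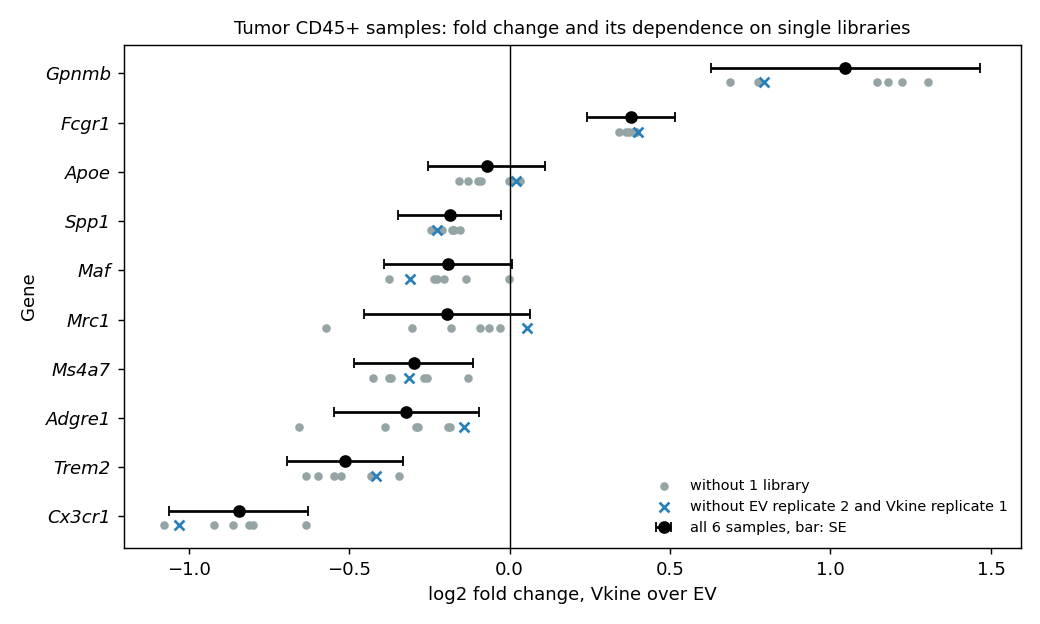
Log2 fold change of Vkine over EV in tumor CD45 samples (black points with SE bars, 6 samples), with the values after leaving out each library in turn (grey) and after leaving out EV replicate 2 and Vkine replicate 1 together (blue crosses). Gpnmb and Fcgr1 stay above 0 and Cx3cr1, Trem2, Adgre1, Ms4a7, Spp1 and Maf stay below 0 in all of these, whereas Mrc1 and Apoe lie on both sides of 0.

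Markers of other cell types were read beside these genes. Neutrophil markers summed to 4029, 3421 and 5283 CPM in Vkine and 1795, 324.3 and 1985 CPM in EV, without overlap. All 11 had counts in each Vkine library, and Camp was at 0 in 2 EV libraries. T cell markers summed to 31.23 to 48.13 CPM in Vkine and 15.24 to 19.98 CPM in EV, with counts for 8 of 8 in every library. The sum of monocyte markers overlapped, at 1721 to 1890 CPM in Vkine and 1449 to 1961 CPM in EV, but single genes differed. Of the 7 monocyte genes, 4 were positive and 3 negative, and none was called. The groups lay apart for 4 of them, higher in Vkine, against 9.2% of all genes, and for 0 of them lower, against 9.42%. Markers of cells other than leukocytes were present too, and their sums overlapped between the groups. Fibroblast markers summed to 156.3 to 257.5 CPM in Vkine and 98.89 to 194.5 CPM in EV. Endothelial markers summed to 84.15 to 170.7 and 40.8 to 140.3 CPM, and epithelial markers to 44.32 to 60.53 and 44.92 to 68.18 CPM. The part of these other cells in the members' values was not tested. Set against Csf1r, the macrophage growth factor receptor, which averaged 942.4 ± 187.1 CPM in Vkine and 960.7 ± 100.6 CPM in EV, the groups still lay apart for Cx3cr1 and Fcgr1. The FPKM ratio of Cx3cr1 to Csf1r was 0.136 to 0.28 in Vkine and 0.308 to 0.353 in EV, and that of Fcgr1 to Csf1r was 0.486 to 0.645 in Vkine and 0.375 to 0.476 in EV. For Trem2, Spp1 and Gpnmb, whose groups lay apart in CPM, the ratios to Csf1r overlapped. They were 0.223 to 0.349 in Vkine and 0.277 to 0.479 in EV for Trem2, and 5.79 to 9.36 and 7.54 to 8.77 for Spp1. For Gpnmb they were 0.0545 to 0.12 in Vkine and 0.018 to 0.0567 in EV.

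Related gene lists had no called member in the CD45 comparison, and their values are given as descriptions. Of 25 core macrophage genes, 18 were negative, with a median log2 fold change of -0.25. The 4 with the smallest p were Pltp (-0.82), the complement gene C1qa (-0.61), Folr2 (-0.73) and Cd81 (-0.36). Of 19 tested lipid and lysosome genes, 12 were positive, among them the fatty acid binding genes Fabp5 (0.79) and Fabp4 (0.70) and the lipid droplet gene Plin2 (0.50), while Nr1h3, which encodes the sterol receptor LXR-alpha, was at -0.39. All 8 tested relatives of Ms4a7 in the MS4A family were positive, with a median of 0.42 and Ms4a4c at 1.02, against -0.30 for Ms4a7 itself. Ms4a4c is also on the monocyte list. Of 15 receptor partners and ligands, 11 were positive, with the IgG receptor Fcgr4 at 1.10 and the integrin Itgb3 at 0.85. Of 12 macrophage transcription factors, 7 were positive and 5 negative, with Klf4 at -0.92 and Cebpa at -0.71. Of 10 alternative activation genes, 5 were positive and 5 negative, with Il10 at 2.14 and Retnla at -3.19. Retnla was scarce, at 0 to 0.7389 CPM in Vkine and 1.112 to 8.69 CPM in EV.

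Among 9886 other protein-coding genes with enough counts, the nearest profiles over the 6 CD45 samples were Gusb and Siglec1 for Adgre1, Chpf2 and Fcrls for Mrc1, and Lgmn and Spop for Apoe. Those nearest to Cx3cr1 were Cep78 and Ikzf5, and those nearest to Trem2 were Prmt2 and Wdr34. Gsr and Pfkfb3 were nearest to Gpnmb, Fnbp1 and Ucp2 to Spp1, Gpatch3 and Tmem251 to Fcgr1, Slx4 and Gphn to Ms4a7, and Naprt and Aars2 to Maf. The root mean square differences were between 0.0366 (Spp1 with Fnbp1) and 0.127 (Cx3cr1 with Ikzf5) in log2 CPM, which describes likeness over few samples.

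In MutuDC the same genes were scarce or absent, and together they took 0.01295% to 0.01377% of counts in Vkine with LPS, 0.00682% to 0.007537% in EV with LPS, 0.004273% to 0.004738% in Vkine and 0.002966% to 0.002999% in EV. Cx3cr1 had 0 counts in all 11 libraries, which allows up to 0.0149 CPM over the 201611491 counts of the set. This limit covers counting error only. Trem2 had 2 counts in 1 Vkine library and none elsewhere, Mrc1 had 1 count in each of 2 libraries with LPS, and Gpnmb had 0 to 5 counts per library, 19 in all. These 4 genes were too low to be tested. The other 6 passed the low-count filter, Fcgr1 only through its Vkine libraries without LPS. Other defining macrophage genes were uneven in this line, with Csf1r at 21.85 to 148.4 CPM and Cd68 at 90.37 to 120.5 CPM, whereas Mertk reached at most 0.112 CPM. The levels in FPKM differed from the CD45 order: Maf, Apoe and Adgre1 were the top 3 in both groups with LPS, and Spp1 ranked 5 of 10 in both.

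**Figure D3:**
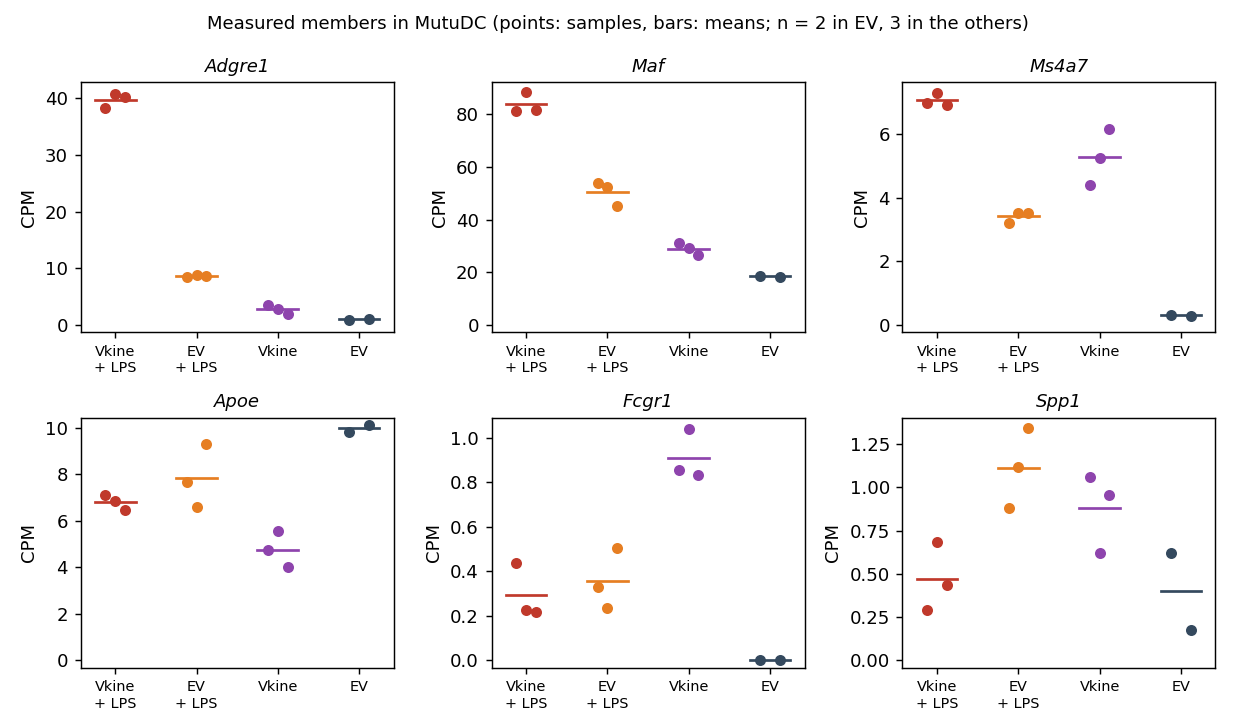
Level in CPM of the 6 members measured in MutuDC, in Vkine with LPS, EV with LPS, Vkine and EV, with points for samples and bars for means (n = 2 in EV, 3 in each other group). Adgre1 and Maf are highest in Vkine with LPS, Fcgr1 is highest in Vkine without LPS, and Apoe is highest in EV without LPS.

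Without LPS, Vkine against EV asked how Vkine samples of the dendritic cell line differ from EV samples. How Vkine was given is not known, so raised and lowered here mean higher and lower than in the reference group. Of the 6 members tested, 4 rose (Adgre1, Ms4a7, Maf and Fcgr1) and 1 fell (Apoe), in a comparison in which 16.9% of 13357 genes rose and 18.3% fell, 35.2% in all. LPS in EV cells raised 5 of the 6 (Adgre1, Ms4a7, Maf, Fcgr1 and Spp1), against 17.2% of genes that rose, with 17.6% that fell and 34.8% in all. LPS in Vkine cells raised 4 (Adgre1, Ms4a7, Maf and Apoe) and lowered 1 (Fcgr1), against 27.6% and 24.3% of genes, 51.9% in all. Vkine with LPS against EV with LPS raised 3 (Adgre1, Ms4a7 and Maf) and lowered 1 (Spp1), against 22.8% and 19.2% of genes, 42% in all. The groups did not overlap for 6, 6, 5 and 4 of the 6 members in these comparisons, against 64.4%, 54.3%, 64% and 48.3% of all genes. The interaction was positive and called for 2 members (Adgre1 and Apoe) and negative and called for 3 (Ms4a7, Spp1 and Fcgr1), against 25.5% and 23.7% of genes, 49.2% in all. These comparisons share groups and are not independent of each other. Fcgr1, counted here, was tested only because it passed the filter through Vkine without LPS.

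Adgre1 showed the widest range. It measured 38.21, 40.83 and 40.29 CPM in Vkine with LPS, 8.435, 8.76 and 8.616 CPM in EV with LPS, 3.474, 2.908 and 2.03 CPM in Vkine, and 0.9322 and 1.119 CPM in EV. No pair of groups overlapped, and the mean in Vkine with LPS was 38.8 times that in EV. Vkine raised it by 1.47 ± 0.24 on the log2 scale without LPS (edgeR adjusted p = 0.000224) and by 2.21 ± 0.11 with LPS (8.94e-10). LPS raised it by 3.81 ± 0.13 in Vkine cells and by 3.07 ± 0.21 in EV cells, with edgeR adjusted p of 1.69e-12 and 1.92e-08. The interaction, the difference between the Vkine effects with and without LPS, was 0.74 ± 0.29 (edgeR adjusted p = 0.0467), and it was called in 6 of 18 alternative settings, among them 2 of 11 with a library left out, over which it ranged from 0.57 to 0.92. In absolute terms the highest value, 40.83 CPM in Vkine with LPS, lay under the lowest CD45 sample, although the tables were normalised apart.

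Maf followed the same order at higher levels. It measured 81.05, 88.53 and 81.58 CPM in Vkine with LPS, 53.92, 52.44 and 45.20 CPM in EV with LPS, 31.06, 29.24 and 26.51 CPM in Vkine, and 18.80 and 18.32 CPM in EV, with no overlap between any groups. Vkine raised it by 0.64 ± 0.10 without LPS and by 0.73 ± 0.08 with LPS, with edgeR adjusted p of 0.000167 and 5.11e-06. LPS raised it by 1.53 ± 0.08 in Vkine cells and by 1.44 ± 0.10 in EV cells (edgeR adjusted p = 8.16e-10 and 3.15e-08). The interaction was 0.086 ± 0.13 (edgeR adjusted p = 0.606), so a difference between the Vkine effects was not detected, and the mean in Vkine with LPS was 4.51 times that in EV.

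Ms4a7 was nearly silent in EV cells and was higher with Vkine, with LPS and with both. It measured 6.969, 7.263 and 6.898 CPM in Vkine with LPS, 3.198, 3.527 and 3.525 CPM in EV with LPS, 4.38, 5.245 and 6.149 CPM in Vkine, and 0.3107 and 0.2946 CPM in EV, the last from 6 and 5 counts. The groups did not overlap. Vkine raised Ms4a7 by 4.08 ± 0.28 without LPS and by 1.04 ± 0.15 with LPS, with edgeR adjusted p of 2.58e-08 and 6.27e-05. LPS raised it by 3.46 ± 0.30 in EV cells (edgeR adjusted p = 3.52e-07) and by 0.43 ± 0.14 in Vkine cells (0.0201). That last call was kept in 13 of 19 alternative settings and ended without Vkine replicate 1 (0.31), Vkine replicate 2 (0.43) or Vkine LPS replicate 2 (0.40). The interaction was -3.04 ± 0.35 (edgeR adjusted p = 3.76e-06), so the Vkine effect was smaller with LPS than without.

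Fcgr1 was at 0 counts in both EV libraries. It measured 0.4386, 0.2287 and 0.219 CPM in Vkine with LPS, 0.3308, 0.2352 and 0.5035 CPM in EV with LPS, and 0.8559, 1.039 and 0.8358 CPM in Vkine, from at most 20 counts in a library. Vkine without LPS was the highest group and overlapped no other, while the groups with LPS overlapped each other. The limit that 0 counts allow over the EV group is 3 counts, 0.0827 CPM. Mean Fcgr1 was 11 times that limit in Vkine and 4.31 times in EV with LPS. The edgeR adjusted p against EV were 0.000158 and 0.00348. The limit covers counting error in EV only, and EV with LPS had 19 counts in all. Fcgr1 passed the low-count filter only through Vkine without LPS, so its being tested depends on that group being high. LPS lowered it in Vkine cells, with a log2 fold change of -1.58 ± 0.44 (edgeR adjusted p = 0.00764). Vkine with LPS against EV with LPS gave -0.25 ± 0.52 (adjusted p = 0.735).

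Apoe was lowest in Vkine cells. It measured 7.115, 6.862 and 6.46 CPM in Vkine with LPS, 7.663, 6.585 and 9.287 CPM in EV with LPS, 4.733, 5.557 and 4.00 CPM in Vkine, and 9.84 and 10.13 CPM in EV. The groups with LPS overlapped each other and no other pair did. Vkine lowered Apoe without LPS, with a log2 fold change of -1.06 ± 0.16 (edgeR adjusted p = 0.000118), and with LPS the value was -0.20 ± 0.15 (0.28). LPS raised it by 0.51 ± 0.15 in Vkine cells (edgeR adjusted p = 0.0109, but 0.0548 without Vkine replicate 3). In EV cells the value with LPS was -0.35 ± 0.16 (edgeR adjusted p = 0.0976, but 0.0228 without EV LPS replicate 3). The interaction was 0.86 ± 0.22 (edgeR adjusted p = 0.00407).

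Spp1 was low in the line, with 3 to 24 counts per library. It measured 0.2924, 0.6862 and 0.438 CPM in Vkine with LPS, 0.8821, 1.117 and 1.343 CPM in EV with LPS, 1.057, 0.6232 and 0.9552 CPM in Vkine, and 0.6215 and 0.1767 CPM in EV. All Vkine samples lay above the EV samples, by a very small margin. The EV libraries differed widely, so comparisons with EV rest on few counts. LPS raised it in EV cells by 1.43 ± 0.51 (edgeR adjusted p = 0.04), which was called in 14 of 19 alternatives. Without EV replicate 1 the value was 2.61 (adjusted p = 0.025) and without EV replicate 2 it was 0.84 (0.319), and the call also ended without EV LPS replicate 3 (0.0868) or Vkine LPS replicate 3 (0.0514). Vkine with LPS was under EV with LPS, with no overlap and a log2 fold change of -1.25 ± 0.44 (edgeR adjusted p = 0.0304). That call was kept in 16 of 19 alternatives and ended without EV LPS replicate 3 (-1.09), Vkine LPS replicate 1 (-0.98) or Vkine LPS replicate 3 (-1.21). Vkine against EV without LPS gave 1.09 ± 0.52 (edgeR adjusted p = 0.119), with 2.28 (0.0514) without EV replicate 1 and 0.51 (0.572) without EV replicate 2, and LPS in Vkine cells gave -0.91 ± 0.45 (0.101). The interaction was -2.33 ± 0.68 (edgeR adjusted p = 0.00958), with -3.55 (0.00461) without EV replicate 1 and -1.78 (0.0547) without EV replicate 2.

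**Figure D4:**
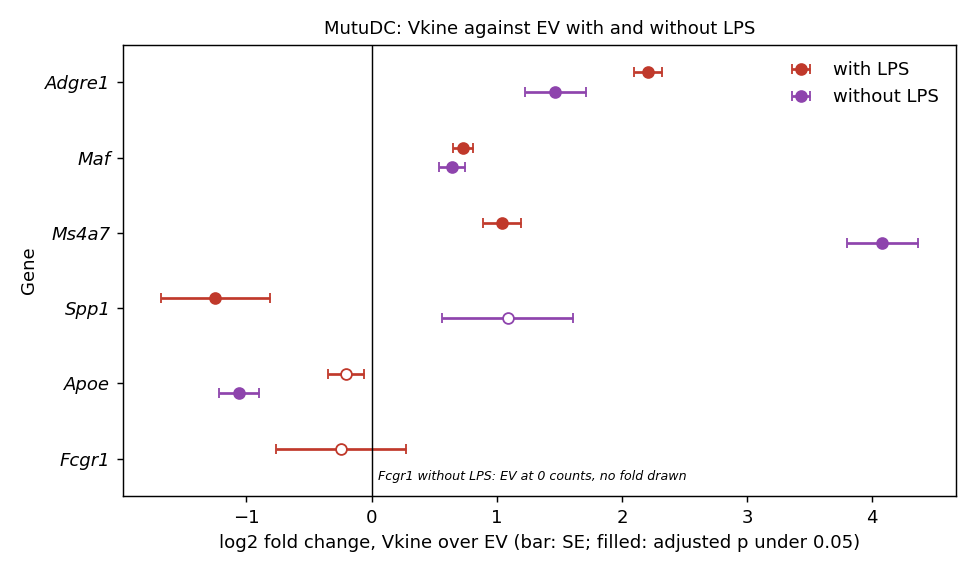
Log2 fold change of Vkine over EV in MutuDC with LPS (red) and without LPS (purple), with SE bars and filled points for an adjusted p under 0.05. Ms4a7 differs most between the conditions, Maf lies at 0.73 with LPS and 0.64 without, and Spp1 lies on opposite sides of 0. Fcgr1 without LPS has no point because EV had 0 counts.

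Beside these genes, other macrophage genes changed in the line in both directions. Without LPS, Vkine against EV raised 9 and lowered 2 of 17 tested core macrophage genes, against 16.9% and 18.3% of all genes, and these included the complement genes C1qa (2.18 ± 0.14 on the log2 scale) and C1qc (1.97 ± 0.18), which rose, and Csf1r (-2.69 ± 0.07), which fell. LPS in EV cells raised 7 and lowered 3 of the 17, against 17.2% and 17.6% of all genes, with C1qa at 1.89 ± 0.14 and Csf1r at -1.43 ± 0.07. With LPS, Vkine against EV raised 7 and lowered 3, against 22.8% and 19.2% of all genes, and there Csf1r was higher by 1.12 ± 0.06. Csf1r measured 115.2 ± 6.03 CPM in Vkine with LPS, 53.1 ± 1.35 in EV with LPS, 22.2 ± 0.295 in Vkine and 143.5 ± 6.86 in EV (SD). Every sample with Vkine alone or LPS alone lay under every EV sample, and so did those with both, by less. All these fold values passed an edgeR adjusted p under 0.05.

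Partners of the members behaved as follows in MutuDC. The fractalkine ligand Cx3cl1, whose receptor Cx3cr1 was not detected, measured 20.0 ± 1.79 CPM in Vkine with LPS, 4.77 ± 0.369 in EV with LPS, 4.06 ± 0.850 in Vkine and 13.2 ± 2.11 in EV. Tyrobp, the signalling adaptor of Trem2, was present at 4.06 to 8.81 CPM without the receptor. Fcer1g, the signalling chain of Fcgr1, fell with Vkine alone (-1.07 ± 0.11 on the log2 scale) while Fcgr1 rose. It rose with LPS in Vkine cells (1.61 ± 0.10) while Fcgr1 fell. With LPS in EV cells Fcgr1 rose, whereas Fcer1g was at 0.09 ± 0.11 without a call (edgeR adjusted p = 0.545). Of 6 tested MS4A relatives of Ms4a7, 5 rose and none fell with Vkine alone, against 16.9% and 18.3% of all genes, and 4 rose with LPS in EV cells, against 17.2%. With Vkine alone the B cell gene Ms4a1 had the highest fold change of the 6, at 0.9845 ± 0.1408 CPM in Vkine against 0.1071 ± 0.0682 CPM in EV. The cholesterol exporter Abcg1 measured 28.4 ± 1.02 CPM in Vkine with LPS, 72.5 ± 2.82 in EV with LPS, 70.4 ± 4.32 in Vkine and 24.1 ± 0.925 in EV. Spi1, which encodes PU.1, measured 629.8 ± 35.4 CPM in Vkine with LPS, 343.3 ± 47.0 in EV with LPS, 313.1 ± 27.0 in Vkine and 435.4 ± 9.88 in EV.

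Among 9392 or 9393 other protein-coding genes, the nearest profiles over the 11 MutuDC samples were the interferon-inducible Gbp2 and Serpina3g for Adgre1 and Hsh2d and Slamf8 for Maf. Those nearest to Ms4a7 were Ier3 and Apol7c, those nearest to Apoe were Haghl and Cbx8, those nearest to Spp1 were St8sia1 and Hap1, and those nearest to Fcgr1 were Ifitm6 and Hmgcs1. The root mean square difference was 0.138 log2 CPM for Maf with Hsh2d, against a standard deviation of 0.828 for Maf itself over the samples, and 0.317 for Adgre1 with Gbp2, against 1.96. For Ms4a7 with Ier3 it was 0.281 against 1.53, and for Apoe with Haghl 0.156 against 0.417. The match was less close for Spp1 with St8sia1 (0.38 against 0.72) and for Fcgr1 with Ifitm6 (0.48 against 1.15). None of these nearest genes was among the 2 nearest of the same member in the CD45 samples. With only 2 kept from so many candidates, this does not show that the profiles differ between the sets.

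Set side by side, the Vkine values of the CD45 samples and the resting line had no common direction across the members. Adgre1, Ms4a7 and Maf rose in MutuDC, whereas in CD45 samples they were at -0.32, -0.30 and -0.19 without a call. Fcgr1 was above 0 in both, but it was tested in MutuDC only because Vkine without LPS was high, so this is no sign of agreement. Gpnmb, also above 0 in CD45 samples, was too low to be tested in MutuDC. Apoe was the only tested member below 0 in both. Its CD45 value of -0.0719 ± 0.18 had no settled side, and it was 0.0325 without EV replicate 2. Whether the effects differ between the sets was not tested, because the tables were made apart and the CD45 samples mix cell types.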

How the data were processed

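Per the submitters' processing notes, reads were handled with STAR, fastp, DESeq2 1.20.0 and featureCounts 1.5.0-p3 on build GRCm38. The deposited counts are raw reads per Ensembl gene, and the authors' FPKM are scaled by gene length and library total, with lengths in the MutuDC table that are not defined. Strand use in counting is not given in the sources used here. Libraries held 13814620 to 21263321 counts. Each table was fitted apart with edgeR 4.0.16 (filterByExpr, TMM, quasi-likelihood F test with robust estimation, R 4.3.3), with 1 model over the 4 MutuDC groups, and Benjamini-Hochberg adjustment over all genes tested, called under 0.05. CPM use TMM-scaled totals. The SE is the log2 fold change divided by the square root of F. The pipeline was tested on simulated data. Levels between genes use FPKM. Alternatives used DESeq2 1.42.0, limma 3.58.1 on log2(FPKM + 1), other filters and scalings, a replicate block, fits of the compared groups alone, and left-out libraries.

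The members, gene lists and tests were chosen with earlier results of these data known. Named genes are all members, up to 4 genes with the smallest p of each related list in a comparison, and the 2 protein-coding genes nearest to each member by root mean square difference of centred log2 CPM (prior count 2, mean of at least 2). Levels of genes named by that rule in another comparison, of marker genes, of Csf1r, Cd68, Mertk and Tyrobp, and the FPKM ratios, were added after values were seen.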

Additional observations from a re-analysis of the deposited data

Results flagged for a closer look

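The Vkine effect in MutuDC differed between cells with and without LPS by the interaction term of the edgeR fit for 5 of the 6 members tested, against 49.2% of all 13357 genes. The interaction is the log2 fold change of Vkine over EV with LPS minus that without LPS. It was 0.74 for Adgre1 (edgeR adjusted p = 0.0467), 0.86 for Apoe (0.00407), -3.04 for Ms4a7 (3.76e-06) and -2.33 for Spp1 (0.00958). The Adgre1 call was kept in only 6 of 18 alternative settings and the Spp1 call in 17 of 18. Those of Ms4a7 and Apoe were kept in all 18. For Fcgr1 the fitted value was -7.32 (edgeR adjusted p = 0.000345). Its size depends on the prior count because EV without LPS had 0 counts, so it is no bound. Fcgr1 passed the low-count filter only through Vkine without LPS, a group of this term.

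Among related genes, the interaction was 3.81 for Csf1r (edgeR adjusted p = 4.03e-13), 3.76 for Cx3cl1 (2.4e-09) and 1.35 for Spi1 (7.42e-07). It was -2.90 for Abcg1 (edgeR adjusted p = 2.73e-11) and -2.78 for Ms4a1 (0.000816). No cause of these differences was tested.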

How the results depend on the processing

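Over 697 values of single genes recomputed under alternatives, 659 kept their direction and side of the threshold, 28 lost a call, 6 gained a call and 4 changed sign without a call. The sign changes were Apoe in CD45 samples without EV replicate 2 (0.033), Apoe (0.019) and Mrc1 (0.054) without EV replicate 2 and Vkine replicate 1 together, and Fcgr1 in Vkine with LPS against EV with LPS without EV LPS replicate 3 (0.079). With libraries left out, Apoe ranged from -0.16 to 0.033, Mrc1 from -0.57 to 0.054, and this Fcgr1 value from -0.66 to 0.079. In CD45 samples 1 member, Cx3cr1, was called with no low-count filter, with DESeq2 and without that pair of libraries, against 0 in the edgeR fit and 0 when any single library was left out. All genes called there numbered 4 in the edgeR fit and 0 to 511 over alternatives, with 511 without the filter, 229 with DESeq2, 290 without the pair and 28 without Vkine replicate 1. In MutuDC the members called for the interaction ranged from 3 to 5 with single libraries left out, with 3 without EV replicate 2. For EV with LPS against EV they ranged from 4 to 5, and 3 were called when only the compared groups were fitted. Leaving out an EV library leaves 1, whose spread is assumed like that of the other groups. Cause was not tested. On log2(FPKM + 1), values of low genes are smaller by construction, and Ms4a7 in Vkine against EV was 1.90 in place of 4.08.

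A check for pairing by replicate number showed none, but it was limited. Deviations of same-numbered samples correlated between -0.0495 and 0.0357 in the 2 CD45 pairs and between -0.101 and 0.0962 in the 15 MutuDC pairs. Of the samples, 0 of 6 and 4 of 11 correlated best with their own number. CD45 numbers followed the titles, so EV replicate 3 and Vkine replicate 3 had no partner and could not score. In MutuDC the 2 EV samples deviate as mirror images, which forces their correlations to opposite signs. The check could therefore not settle whether samples were paired. With the replicate block 0 members were called in CD45 samples, 4 for EV with LPS against EV (Spp1 lost, 1.37) and 4 for the interaction (Adgre1 lost, 0.72), and no other member call changed. All genes called with the block numbered 0 in CD45 samples and 4130, 3919, 6673, 5250 and 6142 in MutuDC (Vkine, LPS in EV, LPS in Vkine, Vkine with LPS, interaction). Depth limits Fcgr1, Spp1 and the 4 untested genes of MutuDC.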
